A study of Mus musculus with 5 samples.

Results

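The AP-1 family genes Jun, Junb, Jund, Fos, Fosb, Fosl1, Fosl2, Batf, Batf3 and Atf3 were described by the BRG1 peaks around them in mouse bone marrow-derived macrophages (BMDMs). These 10 genes were taken by name from 21887 protein-coding genes, and a peak was counted for a gene when its summit lay in the gene body or within 50 kb of it on mm10. This gave 23 of 4668 peaks in oxLDL KO, 46 of 9907 in oxLDL WT, 2 of 139 in KO and 2 of 237 in WT. BRG1 (gene Smarca4) is the motor enzyme of SWI/SNF complexes, which slide and evict nucleosomes, and BAF60a (gene Smarcd1) links these complexes to transcription factors. ChIP-seq of BRG1 was done on Baf60a KO macrophages given oxidised low-density lipoprotein (oxLDL), WT macrophages given oxLDL, Baf60a KO macrophages without it and WT macrophages without it, with 1 library each. An input library of the series was not analysed here. The sources used here do not say how Baf60a was deleted, how much oxLDL was given for how long, or how many mice, of which age and sex, gave the cells. With 1 library per group there was no replicate check and no test between groups. Differences between the lists are therefore described as differences between those libraries, and fewer cells with BRG1 at a site cannot be told apart from less BRG1 per cell.

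AP-1 is a set of dimeric transcription factors built from proteins with a basic leucine zipper. JUN proteins pair with one another or with FOS proteins, while FOS proteins need a JUN partner, and the dimers bind the sequence TGANTCA. BATF proteins and ATF3 carry the same zipper and also pair with JUN proteins. Many of these genes are immediate early genes, switched on within minutes by growth factors, stress or microbial products. In macrophages AP-1 binds many enhancers together with the lineage factor PU.1, and in mouse fibroblasts AP-1 proteins are known to recruit SWI/SNF complexes to enhancers.

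The sequences of 4 promoters are shown because a BRG1 peak of an oxLDL library covered them or ended close to them. Each runs from 250 bases before to 50 bases after the transcription start (RefSeq, GRCm38.p6, the assembly of mm10). The promoter table matched 9 of the 10 genes, all except Fosl1. Capitals mark a match, on either strand, to 1 of 4 motifs: TGANTCA, the classical AP-1 site; TGACNTCA, the longer site bound by ATF and JUN dimers; TTACGTCA, a variant of it; and TGACG, its first part. TTACGTCA holds a TGACG on the opposite strand, and TGACNTCA holds one where N is G. The Fosl2 window lies at chr5:32136222-32136521 on the plus strand, Junb at chr8:84978699-84978998 on the minus strand, Jun at chr4:95052173-95052472 on the minus strand and Atf3 at chr1:191183284-191183583 on the minus strand.
Fosl2: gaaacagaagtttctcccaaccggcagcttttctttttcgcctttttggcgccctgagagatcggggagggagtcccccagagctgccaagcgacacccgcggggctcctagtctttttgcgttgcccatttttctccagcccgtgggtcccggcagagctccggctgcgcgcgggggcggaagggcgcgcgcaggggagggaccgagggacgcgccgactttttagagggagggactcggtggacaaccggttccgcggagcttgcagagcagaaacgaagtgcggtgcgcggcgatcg
Junb: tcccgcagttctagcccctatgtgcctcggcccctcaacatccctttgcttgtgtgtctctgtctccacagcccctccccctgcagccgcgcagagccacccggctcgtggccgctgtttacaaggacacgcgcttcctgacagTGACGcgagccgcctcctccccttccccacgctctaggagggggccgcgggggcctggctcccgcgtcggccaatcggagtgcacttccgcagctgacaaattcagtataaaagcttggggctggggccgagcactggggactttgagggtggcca
Jun: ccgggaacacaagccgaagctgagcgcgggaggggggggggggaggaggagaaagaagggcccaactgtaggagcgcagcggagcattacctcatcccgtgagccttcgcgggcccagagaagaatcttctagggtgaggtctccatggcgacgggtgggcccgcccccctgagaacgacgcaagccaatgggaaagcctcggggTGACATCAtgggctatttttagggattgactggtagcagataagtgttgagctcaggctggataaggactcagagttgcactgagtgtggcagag
Atf3: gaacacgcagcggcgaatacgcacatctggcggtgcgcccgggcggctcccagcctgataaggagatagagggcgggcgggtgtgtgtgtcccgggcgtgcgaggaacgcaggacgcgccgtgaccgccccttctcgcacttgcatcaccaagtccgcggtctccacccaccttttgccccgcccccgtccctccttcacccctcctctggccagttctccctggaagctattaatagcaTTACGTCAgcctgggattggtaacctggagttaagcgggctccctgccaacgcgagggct
The Fosl2 window lay inside the oxLDL WT peak over its whole length of 300 bases, and the nearest oxLDL KO peak ended 13 bases before it. At Junb, an oxLDL WT peak covered 19 bases of the window and the nearest oxLDL KO peak was 130 bases away. At Jun and Atf3 no peak touched the window. The nearest ones were 105 bases away in oxLDL KO and 22 bases away in oxLDL WT at Jun, and 202 and 66 bases away at Atf3. An oxLDL KO peak thus touched the window of 0 of the 9 genes, and an oxLDL WT peak that of 2, against 2.72% and 6.60% of all 21263 promoter windows. A KO or a WT peak touched none of the 9 windows (background 0.0517% in KO and 0.047% in WT). The motifs were chosen after the sequences had been read. TGANTCA was in 0 of the 9 windows and in 6.99% of all windows. Jun held TGACATCA with its first base 45 bases before the start, the only match to TGACNTCA among the 9, and TGACNTCA was in 8.75% of all windows. Atf3 held TTACGTCA with its first base 10 bases before the start, a sequence found in 0.531% of all windows. TGACG was in 5 of the 9 windows (Atf3, Fosb, Junb, Fos and Batf) and in 23.6% of all windows.

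The deposited lists give the position, fold enrichment over local background, −log10 p and −log10 q of each peak. Fold enrichment is the authors' own value and ranks peaks within a list. Total read numbers are unknown, but solving the deposited fold and p-value together returns how many fragments were stacked at a summit (the pileup) and the local background. The lowest background in a list was 3.42 fragments in oxLDL KO, 3.76 in oxLDL WT, 3.84 in KO and 2.70 in WT. At that background the lowest pileup called was 12 fragments in oxLDL KO, 12 in oxLDL WT, 15 in KO and 12 in WT. A site without a peak is one that stayed under such a limit and is not shown to lack BRG1. All 10 macrophage marker genes checked, among them Spi1 and Csf1r, had a peak within 50 kb in both oxLDL lists. In oxLDL KO this held for 0 of 3 T cell, 2 of 3 B cell, 1 of 3 neutrophil and 1 of 3 stromal genes, and in oxLDL WT for 1, 2, 2 and 1. Of all protein-coding genes 31.4% had such a peak in oxLDL KO and 45.6% in oxLDL WT, so the counts for the other cell types, of 3 genes each, do not set them apart from genes in general. None of the peaks near an AP-1 family gene lay on a local background more than 5 times its list's lowest value.

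Under oxLDL, BRG1 peaks lay near 8 of the 10 AP-1 family genes in oxLDL KO and near all 10 in oxLDL WT, against 31.4% and 45.6% of protein-coding genes. Batf and Batf3 had none in oxLDL KO, and a peak in oxLDL WT without one in oxLDL KO was found at 18.0% of protein-coding genes. The other 8 genes had peaks in both libraries, as did 27.5% of protein-coding genes. No member had a peak in oxLDL KO without one in oxLDL WT, as 3.81% of protein-coding genes did. Without oxLDL, 2 of the 10 had a peak in KO (Junb and Jund; background 1.01%) and 2 in WT (Junb and Fosb; background 2.07%), which makes 3 genes with a peak in either (background 2.86%). The median number of peaks per AP-1 family gene was 2 in oxLDL KO and 5 in oxLDL WT, where the median over protein-coding genes was 0 in both and the means were 0.529 and 1.14. As shares of their lists, the peaks near these genes made up 0.493% in oxLDL KO (Wilson 95% interval 0.329 to 0.738), 0.464% in oxLDL WT (0.348 to 0.619), 1.44% in KO (0.395 to 5.09) and 0.844% in WT (0.232 to 3.02). These intervals cover counting error only, and all 4 overlap.

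**Figure D1:**
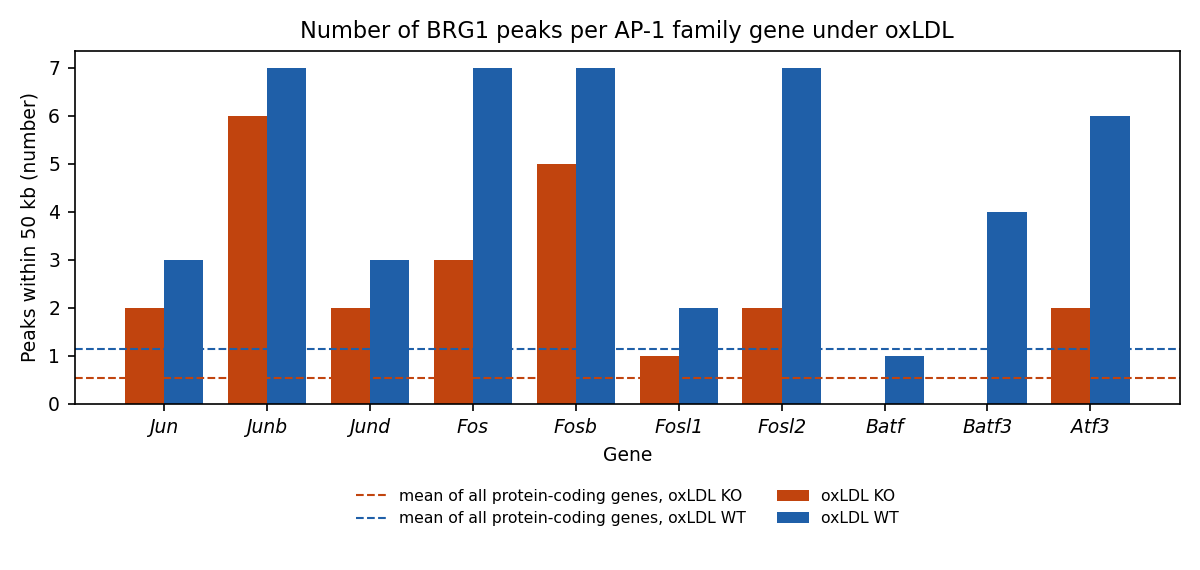
Number of BRG1 peaks within 50 kb of each AP-1 family gene (vertical axis) by gene (horizontal axis), in oxLDL KO and oxLDL WT, with dashed lines at the mean over all protein-coding genes (0.529 and 1.14). Junb had 6 and 7 peaks, while Batf had 0 and 1.

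The number of peaks differed between the genes. Junb had the most peaks in oxLDL KO with 6, a number reached by 0.516% of protein-coding genes, and 7 in oxLDL WT, reached by 2.36%. Fosb had 5 and 7 peaks, Fos 3 and 7, Fosl2 2 and 7, and Atf3 2 and 6. Jun had 2 and 3, Jund 2 and 3, Fosl1 1 and 2, Batf 0 and 1, and Batf3 0 and 4. Fosb, Fos and Fosl2 had as many peaks as Junb in oxLDL WT but fewer in oxLDL KO. The summits of 16 of the 23 oxLDL KO peaks and 31 of the 46 oxLDL WT peaks had an AP-1 family gene as the gene with the nearest end. The windows of Fosl1, Junb, Fosb and Jund hold 11, 8, 7 and 5 other protein-coding genes, so some of their peaks lie closer to a neighbour.

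Gene-end peaks, with a summit within 1 kb of either end, were found at the same 5 genes in both oxLDL libraries: Jun, Junb, Jund, Fosl2 and Atf3. Among protein-coding genes the share was 8.76% in oxLDL KO, 14.9% in oxLDL WT and 5.98% in both. In KO, Jund alone had one (background 0.151%), and in WT none of the 10 did (background 0.247%). Counted at the transcription start, which the promoter table gives for 9 of the genes, the number was 4 in each oxLDL library (Jun, Junb, Fosl2 and Atf3), against 9.84% and 16.3% of the 17492 genes with a listed start and 6.92% in both. At the start, 0 of the 9 had a peak in KO (background 0.166%) and 0 in WT (background 0.303%). Fos, Fosb, Fosl1, Batf and Batf3 had no gene-end peak in any of the 4 lists.

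**Figure D2:**
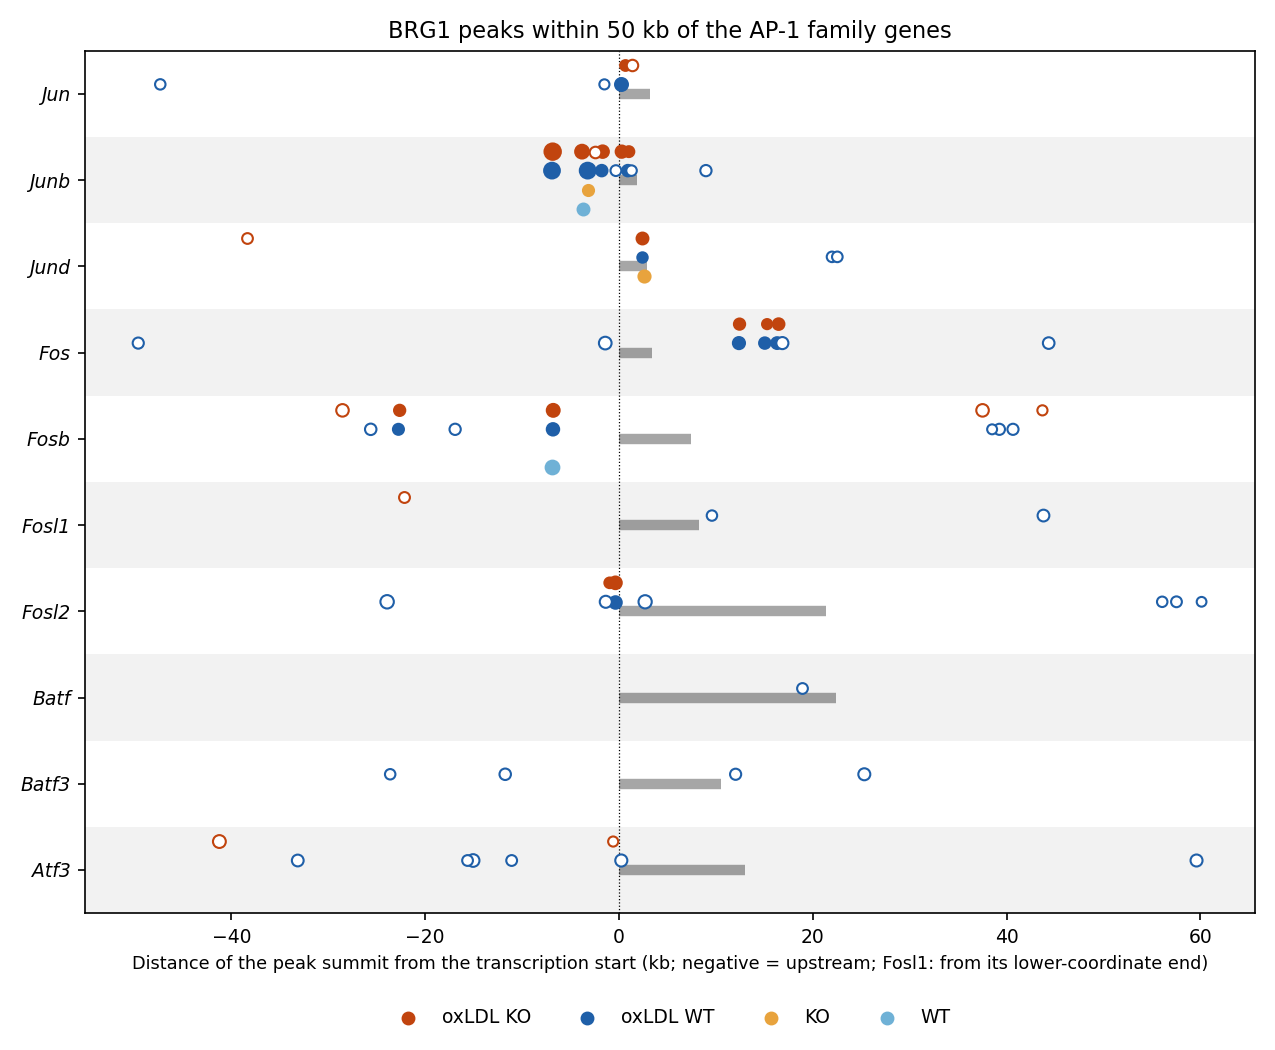
Position of every BRG1 peak summit near the 10 genes, as distance from the transcription start in kb (horizontal axis; Fosl1 from its lower-coordinate end, since its strand was not used), with 1 band per gene and, from top to bottom in a band, oxLDL KO, oxLDL WT, KO and WT. Filled circles overlap a peak of the other oxLDL library (of oxLDL WT, for the untreated ones), circle area follows fold enrichment, and grey bars are gene bodies; filled circles gather upstream of Junb and downstream of Fos.

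Among the JUN genes, Jun itself (chromosome 4, 95049036 to 95052222, minus strand) carried BRG1 inside its intronless body. Jun encodes the classical AP-1 activator c-Jun. In oxLDL KO it had 2 peaks, both in the gene, 1344 bp downstream of the start (fold enrichment 3.77, 23 fragments) and 611 bp downstream (3.32, 17 fragments). In oxLDL WT the highest peak had its summit 192 bp downstream (4.79, 24 fragments), spanned 95051223 to 95052150 and overlapped the second oxLDL KO peak. The oxLDL KO peak deeper in the gene had no oxLDL WT counterpart and lay 99 bp from that oxLDL WT peak. Another 2 oxLDL WT peaks, 1506 bp and 47338 bp upstream, had 13 and 14 fragments, close to the lowest number called, and no oxLDL KO counterpart. The highest summits were at 95050878 in oxLDL KO, with a −log10 p of 8.52 and a −log10 q of 4.36, and at 95052030 in oxLDL WT, with 11.3 and 7.08. Neither untreated list had a peak near Jun.

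Junb (chromosome 8, 84976909 to 84978748, minus strand), which encodes a JUN protein with weaker activation than c-Jun, carried the most enriched BRG1 peaks of the family. A site far upstream of the start held the highest oxLDL KO peak, 6843 bp away with its summit at 84985591 (fold enrichment 7.69, −log10 p 21.8, −log10 q 16.6). In oxLDL WT it lay 6914 bp upstream (7.09, −log10 q 15.4), and both libraries had 33 fragments. It ranked 9th of 4668 oxLDL KO peaks and 75th of 9907 oxLDL WT peaks by fold enrichment. The nearest gene end to this site was that of Hook2, 3185 bp from the oxLDL KO summit and 3114 bp from the oxLDL WT one. Neither untreated list had a peak there.

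A second upstream Junb site, between 84981796 and 84983174, was the only one near the family with a peak in all 4 lists. Its fold enrichment was 5.43 in oxLDL KO with 23 fragments, 7.14 in oxLDL WT with 33, 3.51 in KO with 16 and 4.05 in WT with 14. The oxLDL KO peak ranked 201st in its list and the oxLDL WT peak 60th. This was the highest Junb peak of oxLDL WT (summit 84981979, −log10 p 20.5, −log10 q 15.4). In KO (84981914) the −log10 p was 6.18 and the −log10 q 1.58, and in WT (84982425) 6.74 and 2.07. The KO and WT peaks did not overlap each other, since 359 bp lay between them, and were joined by the wider oxLDL peaks. The oxLDL KO summit lay 3813 bp and the oxLDL WT summit 3231 bp upstream of the start. Over the whole series 41 of 11824 merged sites (0.347%) had a peak in all 4 lists.

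Around the Junb start and body the peaks were lower. A site 1687 bp upstream in oxLDL KO (4.46, 20 fragments) and 1780 bp upstream in oxLDL WT (3.78, 17 fragments) was in both libraries. Inside the intronless gene, oxLDL KO peaks 289 bp (4.30, 18 fragments) and 1019 bp (3.40, 15 fragments) downstream both overlapped a single oxLDL WT peak with its summit 911 bp downstream (3.78, 17 fragments). An oxLDL KO peak 2516 bp upstream (3.85) had no oxLDL WT counterpart. In oxLDL WT alone there were peaks 319 bp upstream (3.36), 1296 bp downstream in the gene (3.19) and 8973 bp downstream, the last one inside the neighbouring gene Prdx2 and 153 bp from its end (3.65).

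Jund (chromosome 8, 70697739 to 70700616, plus strand), which encodes a JUN protein expressed broadly without stimulation, had a BRG1 site near its 3′ end rather than at its start. The summit lay 2420 bp downstream of the start in oxLDL KO (4.03, 18 fragments), 2424 bp in oxLDL WT (3.09, 14 fragments) and 2566 bp in KO (4.21, 20 fragments), and WT had no peak there. The 3 peaks overlapped, and the KO peak ranked 22nd of 139 in its list. The oxLDL WT peak, with a −log10 q of 1.91, was among the lower of its list, at rank 8472. The other Jund peaks lay in neighbouring genes: in Pgpep1 in oxLDL KO (3.32), and a pair in Gm3336 in oxLDL WT (3.19 and 3.24). The highest summits were at 70700159 in oxLDL KO (−log10 p 7.79, −log10 q 3.78), at 70720271 in oxLDL WT (5.40 and 2.27) and at 70700305 in KO (8.74 and 3.76).

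Among the FOS genes, Fos (chromosome 12, 85473890 to 85477274, plus strand), which encodes the serum-induced partner of c-Jun, had its shared BRG1 sites downstream of the gene. In oxLDL KO all 3 peaks lay there, at 12440 bp (3.62, 15 fragments), 15286 bp (2.94, 12 fragments) and 16475 bp (3.85, 16 fragments) from the start. Each overlapped an oxLDL WT peak, at 12379 bp (4.20, 19 fragments), 15049 bp (3.75, 17 fragments) and 16320 bp (3.99, 18 fragments). A further oxLDL WT peak at 16861 bp (4.20, 19 fragments) lay 209 bp from the nearest oxLDL KO peak. The highest Fos peak in oxLDL KO had its summit at 85490365 (−log10 p 6.87, −log10 q 3.05). In oxLDL WT the highest was at 85472473, 1417 bp upstream of the start (4.62, 21 fragments, −log10 p 9.95, −log10 q 5.85), and the nearest oxLDL KO peak was 13642 bp from it. Another 2 oxLDL WT peaks, 49611 bp upstream (3.57) and 44345 bp downstream (3.88), had no oxLDL KO counterpart. No other protein-coding gene lies within 50 kb of Fos, and neither untreated list had a peak there.

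Fosb (chromosome 7, 19302696 to 19310118, minus strand), known for its stable splice form in chronically stimulated neurons, had a site upstream that was also called without oxLDL. The summit lay 6787 bp upstream in oxLDL KO (4.75, 20 fragments), 6813 bp in oxLDL WT (4.41, 20 fragments) and 6943 bp in WT (5.40, 19 fragments), and KO had no peak there. These were the highest Fosb peaks of each library, at 19316832 in oxLDL KO (−log10 p 9.91, −log10 q 5.48), 19316858 in oxLDL WT (9.18 and 5.20) and 19316988 in WT (10.9 and 5.84). The WT peak ranked 13th of 237 in its list and was the highest peak near the family in the untreated libraries. The KO list needed at least 15 fragments at its lowest background. A second shared site lay 22634 bp upstream in oxLDL KO (3.62) and 22760 bp in oxLDL WT (3.48), with 17 fragments in each. The remaining Fosb peaks were each in 1 library: 3 in oxLDL KO, with fold enrichments of 2.97 to 4.53, and 5 in oxLDL WT, with 2.84 to 3.78. Of these, 1 oxLDL KO peak and 3 oxLDL WT peaks lay inside Vasp, an actin regulator gene, and an oxLDL KO peak lay 672 bp outside it.

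Fosl2 (chromosome 5, 32136472 to 32157840, plus strand) encodes Fra-2, a FOS protein that lacks the strong activation domain of c-Fos. It carried the broadest BRG1 peak of the family, 1955 bp wide in oxLDL WT (32135490 to 32137444), with the summit 446 bp upstream of the start (4.49, 30 fragments). That peak overlapped 2 oxLDL KO peaks, 366 bp upstream (4.58, 30 fragments, −log10 q 7.96) and 960 bp upstream (3.25, 21 fragments). The pileup at the summits 366 bp upstream in oxLDL KO and 446 bp upstream in oxLDL WT was thus 30 fragments in each. The local background was 5.77 fragments in oxLDL KO and 5.90 in oxLDL WT, above the lowest of either list. Only the oxLDL WT peak spanned the start itself, and the unscaled pileups do not show equal BRG1. Further peaks were called in oxLDL WT alone: 23928 bp upstream (5.19, 24 fragments), 2699 bp downstream inside the gene (5.04, 23 fragments) and 1363 bp upstream (4.17, 26 fragments), the last 129 bp from an oxLDL KO peak. The first of these (summit 32112544, −log10 p 12.2, −log10 q 7.89) was the highest Fosl2 peak of oxLDL WT and ranked 727th of 9907, and the second ranked 757th. The highest of oxLDL KO was the one at 32136106 (−log10 p 12.7). The other 3 oxLDL WT peaks lay 56060 to 60123 bp downstream of the start, beyond the 3′ end, with 12 to 15 fragments. Neither untreated list had a peak near Fosl2.

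Fosl1 (chromosome 19, 5447698 to 5455938), which encodes Fra-1, had no peak whose nearest gene end was its own. The only oxLDL KO peak (3.39, 14 fragments) lay in AI837181, with its summit 22143 bp from the nearest end of Fosl1. The 2 oxLDL WT peaks lay in Ccdc85b (3.13, 14 fragments) and in Cfl1, the cofilin gene (3.99, 18 fragments). Their summits were 1353 bp and 35567 bp from the nearest end of Fosl1. The highest summits were at 5425555 in oxLDL KO (−log10 p 5.49, −log10 q 2.0) and at 5491505 in oxLDL WT (7.70 and 3.99). None overlapped a peak of another list.

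Of the BATF genes, Batf (chromosome 12, 85686720 to 85709087, plus strand) had 1 peak, in oxLDL WT, 18848 bp downstream of the start and inside the gene (summit 85705568, 3.33, 15 fragments, −log10 p 5.58, −log10 q 2.39). The nearest oxLDL KO peak was 105646 bp from it. Batf encodes a factor without an activation domain of its own that pairs with JUN proteins and acts together with IRF proteins in lymphocytes. Batf3 (chromosome 1, 191098414 to 191108943, plus strand), needed for classical type 1 dendritic cells, had 4 peaks in oxLDL WT and none in any other list. They lay 23612 bp upstream in Nsl1 (3.15), 11741 bp upstream (3.78), 12036 bp downstream (3.57) and 25317 bp downstream (summit 191123731, 4.14, 20 fragments, −log10 p 8.58, −log10 q 4.73). That last peak is 59602 bp from the Atf3 start, within 50 kb of both gene bodies, and was counted for both genes but only once in the totals.

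Atf3 (chromosome 1, 191170296 to 191183333, minus strand), a stress-induced gene whose product restrains inflammatory gene expression in macrophages, had start peaks in both oxLDL libraries that did not overlap. The oxLDL KO summit lay 600 bp upstream of the start (2.94, 12 fragments, −log10 q 1.09), at the lowest pileup called. The oxLDL WT summit lay 239 bp downstream, in the gene (4.20, 19 fragments, −log10 q 4.59), and 568 bp separated the 2 peaks. The highest Atf3 peak in oxLDL KO was 41237 bp upstream (summit 191224570, 4.75, 20 fragments, −log10 p 9.91, −log10 q 5.48), with the nearest oxLDL WT peak 7808 bp away. In oxLDL WT the highest was 15054 bp upstream (summit 191198387, 4.62, 21 fragments, −log10 p 9.95, −log10 q 5.85), followed by the one at the start and the one shared with Batf3. Further oxLDL WT peaks lay 11075, 15627 and 33150 bp upstream, with fold enrichments of 3.33 to 3.99. None of the Atf3 peaks of one library overlapped a peak of another.

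Across the family, 14 of the 23 peaks in oxLDL KO shared at least 1 bp with a peak in oxLDL WT (60.9%, Wilson interval 40.8 to 77.8), and 12 of the 46 in oxLDL WT did so with one in oxLDL KO (26.1%, 15.6 to 40.3). Over all peaks of the lists the shares were 59.6% and 27.3%, so the sharing near these genes was close to that of all peaks. Overlapped peaks had the higher medians within their list: the median fold enrichment was 3.94 for overlapped and 3.77 for other oxLDL KO peaks, and 4.09 and 3.57 in oxLDL WT. Over all peaks these medians were 4.07 and 3.62 in oxLDL KO and 3.99 and 3.57 in oxLDL WT. Within 20 kb of the genes, 13 of 16 oxLDL KO peaks and 11 of 31 oxLDL WT peaks were overlapped, and from 20 to 50 kb 1 of 7 and 1 of 15. These distance classes were chosen with earlier results known. The overlapped shares within 20 kb were 81.2% (57.0 to 93.4) in oxLDL KO and 35.5% (21.1 to 53.1) in oxLDL WT. From 20 to 50 kb they were 14.3% (2.57 to 51.3) in oxLDL KO and 6.67% (1.19 to 29.8) in oxLDL WT. For peaks around all protein-coding genes, counted once per gene, the shares were 60.7% in oxLDL KO and 27.5% in oxLDL WT within 20 kb, and 59.3% and 26.6% from 20 to 50 kb. The interval near the family held the all-gene share in 3 of these 4 cases. In the other, the 7 oxLDL KO peaks from 20 to 50 kb, the all-gene share lay above the interval. Most of those peaks lay near Fosb, while the interval treats peaks as independent, so a departure cannot be read from it. This was not tested further. Against the untreated library of the same genotype, 2 of 23 oxLDL KO peaks were overlapped (8.70%, 2.42 to 26.8; background 2.04%) and 2 of 46 oxLDL WT peaks (4.35%, 1.2 to 14.5; background 1.81%). Both KO peaks and both WT peaks near the family lacked an overlapping peak in the other untreated list. Over all peaks, 33.8% of KO peaks were overlapped by a WT peak and 19.0% of WT peaks by a KO peak. With 2 peaks in each list, this does not set the family apart.

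Merging overlapping peaks of the 4 lists gave 55 sites near the family. Of these, 12 (21.8%) had peaks in both oxLDL libraries, 9 (16.4%) in oxLDL KO alone and 34 (61.8%) in oxLDL WT alone. Among all 11824 merged sites the shares with both oxLDL peaks, with an oxLDL KO but no oxLDL WT peak, and with an oxLDL WT but no oxLDL KO peak were 22.6%, 15.9% and 60.9%. The 3 sites with an untreated peak, upstream of Junb, upstream of Fosb and in Jund, were all among the 12. Each of them had peaks in at least 3 lists. A site in 3 of the 4 lists must hold an untreated peak. Of the 326 merged sites with an untreated peak, 188 had peaks in at least 3 lists (1.59% of all merged sites). Over the whole series an untreated peak was at 2.76% of merged sites, against 5.45% near the family, and 80.4% of the 326 sites with an untreated peak also had an oxLDL peak.

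At the 12 shared sites the pileups were set side by side. The median was 18 fragments in oxLDL KO (12 to 33) and 18.5 in oxLDL WT (14 to 33), and the pileup was higher in oxLDL KO at 3 sites, higher in oxLDL WT at 5 and equal at 4. The exact 95% Poisson intervals of the paired pileups overlapped at all 12. These intervals cover counting error only, and fragments that are copies from amplification are not independent. The largest gap was at the second Junb site, with 23 fragments in oxLDL KO (14.6 to 34.5) and 33 in oxLDL WT (22.7 to 46.3). At Jun there were 17 (9.90 to 27.2) and 24 (15.4 to 35.7). Each pileup was read at the summit of its own library, so a pair is not always 1 position. The paired summits lay 582 bp apart at the second Junb site, 419 bp at Jun and 622 bp at the site in the Junb body. The pileups were not scaled, since the total reads of the libraries are unknown, and the sites were taken because both libraries had called them. With 12 to 33 fragments the intervals are wide, so their overlap does not show that BRG1 was equal at these sites.

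**Figure D3:**
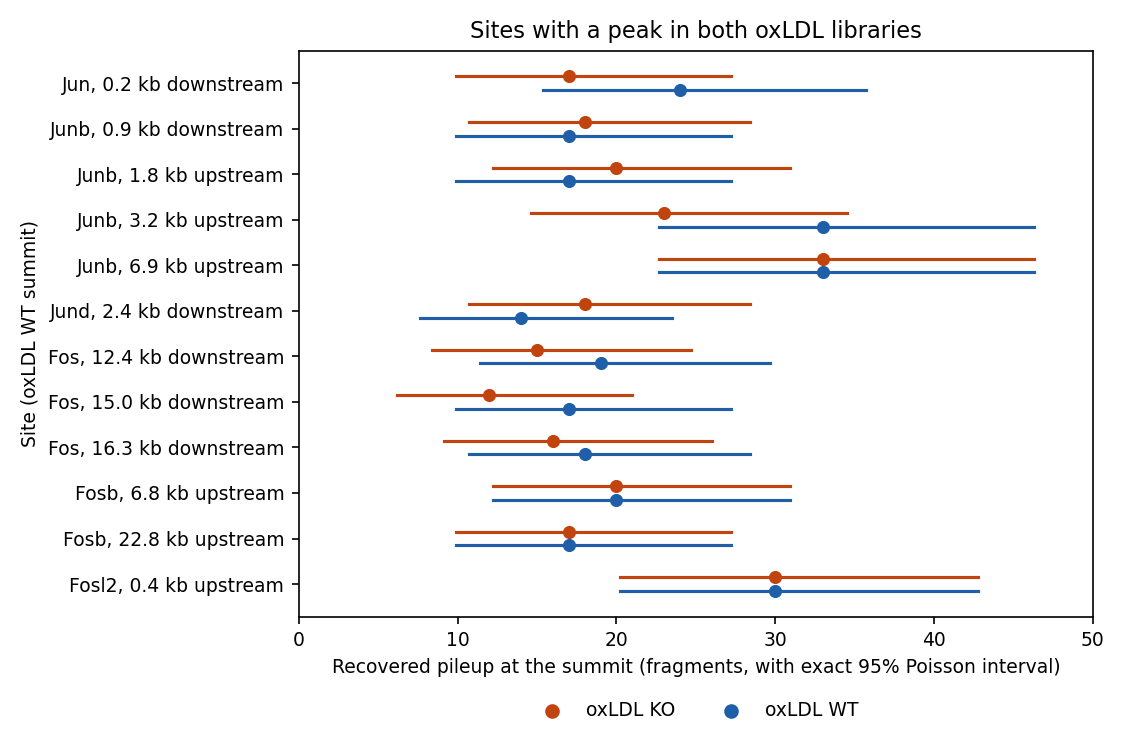
Recovered pileup at the summit, in fragments (horizontal axis), at the 12 sites near AP-1 family genes with a peak in both oxLDL libraries (vertical axis, named by the oxLDL WT summit), with oxLDL KO above oxLDL WT and lines for exact 95% Poisson intervals. Each value is read at the summit of its own library, and paired summits can lie apart. The paired intervals overlap at every site, and the values run from 12 to 33 fragments.

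The peaks in 1 oxLDL library alone had lower median pileups than the shared ones, with overlapping ranges. The 34 oxLDL WT peaks without an oxLDL KO counterpart had a median of 17 fragments (12 to 26), and the 12 with one had 18.5 (14 to 33). The 9 oxLDL KO peaks without an oxLDL WT counterpart had a median of 16 (12 to 23), and the 14 with one had 18 (12 to 33). At a −log10 q of at least 5, 5 oxLDL KO peaks at 4 genes and 10 oxLDL WT peaks at 6 genes were left, together with 0 peaks in KO and 1 peak at 1 gene in WT. Among protein-coding genes 8.26% had such a peak within 50 kb in oxLDL KO, 19.6% in oxLDL WT, 0.192% in KO and 0.242% in WT. Of the peaks near the family 21.7% in oxLDL KO and 21.7% in oxLDL WT passed this limit, against 19.8% and 25.4% of all peaks in those lists; in KO and WT 39.6% and 29.1% of all peaks passed. The oxLDL KO ones were both high Junb sites, the Fosb site 6787 bp upstream, the Fosl2 peak 366 bp upstream and the Atf3 site 41237 bp upstream. The oxLDL WT ones were both high Junb sites, the Jun start, the Fos site 1417 bp upstream, the Fosb site 6813 bp upstream, the Atf3 site 15054 bp upstream and 4 Fosl2 peaks.

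The family did not stand above its lists in peak height as a whole. The median fold enrichment near the 10 genes was 3.85 in oxLDL KO and 3.70 in oxLDL WT, against 3.85 and 3.75 over all peaks of those lists. The range was 2.94 to 7.69 in oxLDL KO and 2.73 to 7.14 in oxLDL WT, with Junb at the top in both. Median widths were 307 bp in oxLDL KO and 348 bp in oxLDL WT, against 309 and 368 bp over all peaks. Summits lay upstream of the start for 12 and downstream for 10 oxLDL KO peaks of the 9 genes with a listed start, and for 21 and 23 oxLDL WT peaks.

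**Figure D4:**
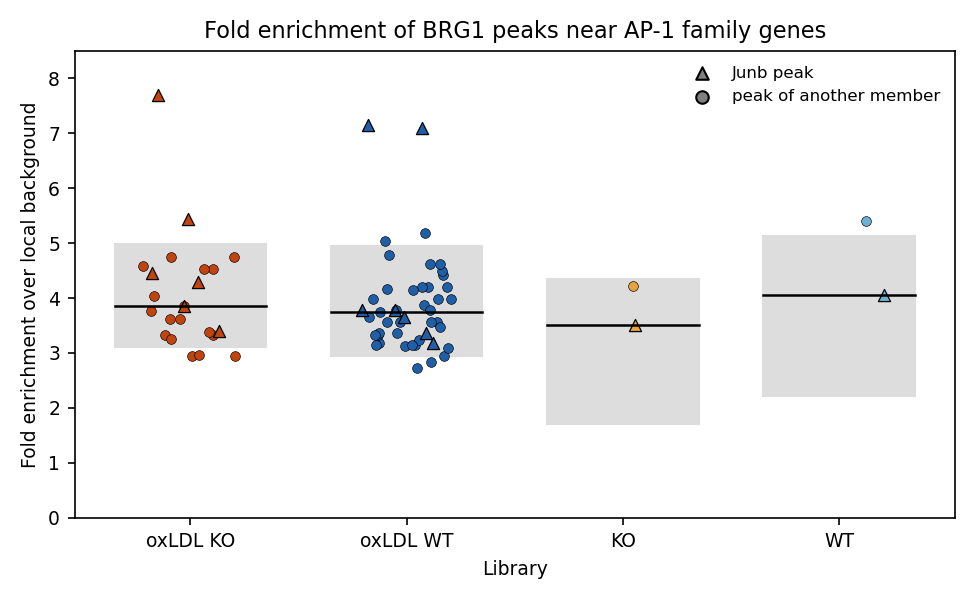
Fold enrichment over local background (vertical axis, the authors' value) of each peak near an AP-1 family gene, by library (horizontal axis), with triangles for Junb; the black line is the median of all peaks of that list and the grey box spans their 10th to 90th percentile. Junb reaches 7.69 in oxLDL KO and 7.14 in oxLDL WT, while most other members lie inside the grey boxes.

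Genes that work with AP-1 were set beside the family. Of 15 partner genes with a basic leucine zipper, 10 had a peak within 50 kb in oxLDL KO (background 31.4%), 12 in oxLDL WT (background 45.6%), 0 in KO (background 1.01%) and 0 in WT (background 2.07%). Among those with peaks in both, the highest fold enrichments were at the gene of the heme-regulated repressor Bach1 (oxLDL KO 4.53, oxLDL WT 6.09), at Nfe2l2 (4.30 and 5.88), which encodes NRF2, at the small MAF gene Mafg (3.85 and 5.46) and at Jdp2 (5.20 and 3.41), which encodes a JUN dimerization partner. Creb1 had a peak in oxLDL KO alone (4.53), and Atf7 (3.57), Crem (2.94) and Mafk (2.90) in oxLDL WT alone, while Batf2 and Atf2 had none. Among protein-coding genes, 3.81% had a peak in oxLDL KO and none in oxLDL WT, and 18.0% the reverse. Of 14 kinases and other inducers or regulators of AP-1, 11 had a peak in oxLDL KO, 10 in oxLDL WT, 0 in KO and 2 in WT, against the same shares of 31.4%, 45.6%, 1.01% and 2.07% of protein-coding genes. The highest in both oxLDL lists were at the p38-activated kinase gene Mapkapk2 (5.20 and 5.67), at Mapk3 (5.20 and 4.83), which encodes ERK1, at the ternary complex factor gene Elk3 (4.98 and 4.41) and at Mapk14 (4.07 and 4.83), which encodes p38 alpha. The 2 with a WT peak were Mapkapk2 (4.59) and Map2k4 (3.78). Mapk9 had a peak in oxLDL KO alone (2.78, background 3.81%), and Mapk8, Map2k7 and Elk1 had none in any list. Elk1 lies on the X chromosome, where no list used here has a peak. The median number of peaks was 1 in oxLDL KO and 2 in oxLDL WT for the partners, and 1 in both for the kinases and inducers, against 2 and 5 for the AP-1 family. The 10 macrophage marker genes had medians of 2.5 in oxLDL KO and 5.5 in oxLDL WT, above those of the AP-1 family. Gene-end peaks were at 8 of the 10 marker genes in oxLDL KO and at 9 in oxLDL WT, against 5 and 5 of the 10 AP-1 family genes. They were at 4 and 8 of the 15 partner genes and at 5 and 5 of the 14 kinases and inducers. Among protein-coding genes the shares were 8.76% in oxLDL KO and 14.9% in oxLDL WT.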

How the data were processed

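BRG1 ChIP-seq peak lists of 4 libraries were used, 1 per group as the sample titles give it. Per the labels' protocols, chromatin was cut enzymatically (SimpleChIP kit), precipitated with an Abcam antibody against BRG1 and sequenced as paired ends. Tools named in the submitters' processing notes are MACS3, Bowtie2, Trimmomatic 0.33 and bcl2fastq 2.17, with build mm10; parameters, and any use of the input as control, are not given in the sources. Peaks were called per library. The authors deposited a score (the −log10 q times 10, as a whole number), a fold enrichment (a ratio to local background at the summit), −log10 p and −log10 q, and the summit offset. A longer list reaches weaker p-values (a lower −log10 p) at the same q limit. The lowest −log10 p was 3.67 in oxLDL WT, 3.96 in oxLDL KO, 5.13 in WT and 5.33 in KO.

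Pileup and background were solved from fold enrichment, taken as (pileup + 1)/(background + 1), and the Poisson p-value; the pileup came within 0.02 of a whole number for 99.9% of peaks in both oxLDL lists, 93.5% in KO and 97.9% in WT. Genes came from RefSeq on GRCm38.p6; strand and starts came from its promoter table, which lists 17492 of the 21887 protein-coding genes, and exons were not used. The lists used here hold no peak on X or Y, whose genes stay in the shares over all genes. Gene ends of all genes served for the gene-end count. Positions are 1-based. The members and lists were chosen with earlier results of these data known. All members and every peak near them were named, with −log10 p and q for the highest peak per gene and list; partners and inducers were named by highest fold enrichment, up to 4 in both oxLDL lists and up to 4 in 1 list. Alternatives covered the q limit, a common p limit, high background, the window, the gene-end distance and the overlap rule. Calculations used Python 3.11.15, numpy 2.4.6, pandas 2.3.3 and scipy 1.17.1, and were tested on simulated data.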

Additional observations from a re-analysis of the deposited data

How the results depend on the processing

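No paired analysis was possible because each group has 1 library. Of 104 values recomputed under alternatives, 80 stayed within 1.5 times the main count or inside the main interval and 24 did not. At a −log10 q of at least 2, KO had 1 peak at 1 gene. With the limit at 5, the lists held 5 peaks at 4 genes in oxLDL KO, 10 peaks at 6 genes in oxLDL WT, 0 peaks at 0 genes in KO and 1 peak at 1 gene in WT. The genes with a gene-end peak then numbered 1 in oxLDL KO, 2 in oxLDL WT and 0 in KO. The share of oxLDL KO peaks overlapped by oxLDL WT was 80.0% at that limit, and the share overlapped by KO was 0%. With a 20 kb window oxLDL WT overlapped 81.2% of oxLDL KO peaks, and a 100 kb window held 76 oxLDL WT peaks and brought the genes with an oxLDL KO peak to 10. Gene-end peaks were at 8 genes in oxLDL WT within 2 kb and at 3 genes in oxLDL KO within 500 bp. Shares of all protein-coding genes were not computed for the changed windows and gene-end distances, or for gene ends at the q limit of 5. The gene counts at those settings therefore do not set the family apart from genes in general. Counting the transcription start alone, chosen after seeing the data, left 0 in KO. Requiring an overlap of 50% of each peak gave 34.8% of oxLDL KO peaks with an oxLDL WT peak, and 0% of peaks of either oxLDL list with an untreated peak of the same genotype. Matching summits within 200 bp gave 39.1% for oxLDL KO against oxLDL WT. Why these values moved was not tested. A common −log10 p limit of 5.33 and leaving out high-background peaks moved none of these values by that much. Pileups of 12 to 33 fragments limit every statement on single sites.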
